A study of Mus musculus with 11 samples.

Results

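Of the genes that mark red cells, 8 were followed: the adult globin genes Hba-a1, Hba-a2, Hbb-b1 and Hbb-b2, the haem synthesis gene Alas2, the membrane genes Slc4a1 and Epb4.2, and the transcription factor gene Klf1. They are well-known genes of red cells, chosen by name with earlier results of these data known, and each matched 1 of the 37224 gene rows by its symbol. RNA was sequenced from T cell acute lymphoblastic leukaemias (T-ALL) of mice, and reads were counted per gene in 2 pools. The Utx knockout pool (Utx-/Y) was set against a Utx wild-type pool (Utx+/+ or Utx+/Y), so knockout donors were male and wild-type donors of either sex. Utx, listed as Kdm6a, is a histone demethylase encoded on the X chromosome. Leukaemias of both genotypes arose from cKit progenitors that were given a Notch1-IC retrovirus in culture and then transplanted, on the strain background C57/BL6. Notch1-IC is the activated intracellular part of Notch1. The labels list 5 knockout samples, 2 of bone marrow and 3 of spleen, and 6 wild-type samples, 2 of bone marrow and 4 of spleen. Among these, 1 knockout marrow, 1 wild-type marrow and 1 wild-type spleen sample are repeat runs. The source is labelled as T-ALL blasts, and the labels used here state neither ages nor the strain of recipients.

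Each gene has a single pooled count per genotype, and the sources used here do not say which samples entered each pool. No spread between leukaemias can be computed, so no difference below has been checked across replicates, and reads of 1 leukaemia could make up most of a pooled count. The share of bone marrow and spleen in each pool is not stated either, so tissue and genotype cannot be told apart. The knockout pool held 106445530 counts and the wild-type pool 108015222. Kdm6a was at 10.5 counts per 1000000 (CPM) in knockout and 58.3 in wild-type leukaemias, a log2 ratio of -2.48 (95% interval -2.57 to -2.38). Intervals on log2 ratios between the pools are exact 95% Clopper-Pearson intervals of counting error only. Intervals on differences between within-pool ratios of 1 gene to another, or of summed genes, are log-scale normal intervals, also of counting error only. Calls of higher or lower in the knockout pool needed at least 100 counts in both pools together, a difference of 2-fold or more, and an interval without 0 on the log2 scale.

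Red cells carry oxygen on haemoglobin, which is built from alpha globin chains, beta globin chains and haem. Their precursors, the erythroblasts, mature in bone marrow and, in mice, also in the spleen, and in their late stages they turn over most of their RNA synthesis to globin. KLF1 and GATA1 are the transcription factors known to switch on globin, haem synthesis and membrane genes there. In a bulk sample, fewer cells of a type and less RNA per cell cannot be told apart.

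The promoters of the globin genes are shown to compare the globin copies, and that of Alas2 because it had the highest ratio of the 8 genes. Likeness of promoters does not bear on how reads are assigned, for which windows of the transcripts are compared below. The sequences are the 250 bases before the RefSeq start of each gene, on the gene's strand, in GRCm38.p6. RefSeq's table held 7 of the 8 genes; Slc4a1 is named only. The rows listed as Hbb-b1 and Hbb-b2 carry the Ensembl identifiers that GENCODE M21 names Hbb-bs and Hbb-bt, the beta globin genes of the haplotype of C57BL/6 mice, and their promoters were taken under those names. Capitals mark letters of 4 motifs, searched on both strands. The motif of GATA factors was read as AGATAA, and also as TGATAA. The box bound by KLF1 was read as CACCC. A general promoter box was read as CCAAT, and the box that positions the start of transcription as TATAA. Matches of different motifs did not overlap in these windows, while the TATAA matches of Alas2 on opposite strands overlap each other.
Hba-a1, chr11:32283422-32283671, plus strand: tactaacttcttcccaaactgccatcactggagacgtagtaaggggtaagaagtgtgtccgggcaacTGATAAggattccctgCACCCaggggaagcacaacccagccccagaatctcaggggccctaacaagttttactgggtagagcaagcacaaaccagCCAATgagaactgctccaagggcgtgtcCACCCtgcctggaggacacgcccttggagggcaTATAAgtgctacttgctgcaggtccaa
Hba-a2, chr11:32296242-32296491, plus strand: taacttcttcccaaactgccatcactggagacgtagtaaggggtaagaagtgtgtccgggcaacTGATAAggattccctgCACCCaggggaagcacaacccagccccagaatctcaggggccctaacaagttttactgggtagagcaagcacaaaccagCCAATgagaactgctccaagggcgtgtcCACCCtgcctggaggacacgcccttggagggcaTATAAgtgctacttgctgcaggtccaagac
Hbb-b1, chr7:103827929-103828178, minus strand: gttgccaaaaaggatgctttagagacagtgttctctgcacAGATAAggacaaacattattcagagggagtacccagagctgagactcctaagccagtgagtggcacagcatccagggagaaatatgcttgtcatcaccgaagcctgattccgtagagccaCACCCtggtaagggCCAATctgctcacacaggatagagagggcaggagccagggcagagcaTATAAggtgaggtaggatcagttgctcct
Hbb-b2, chr7:103813924-103814173, minus strand: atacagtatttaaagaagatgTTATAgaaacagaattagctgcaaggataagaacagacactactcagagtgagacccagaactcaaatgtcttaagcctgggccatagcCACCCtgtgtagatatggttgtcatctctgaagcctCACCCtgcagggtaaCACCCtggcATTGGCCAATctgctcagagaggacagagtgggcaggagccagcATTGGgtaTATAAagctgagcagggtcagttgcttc
Alas2, chrX:150547167-150547416, plus strand: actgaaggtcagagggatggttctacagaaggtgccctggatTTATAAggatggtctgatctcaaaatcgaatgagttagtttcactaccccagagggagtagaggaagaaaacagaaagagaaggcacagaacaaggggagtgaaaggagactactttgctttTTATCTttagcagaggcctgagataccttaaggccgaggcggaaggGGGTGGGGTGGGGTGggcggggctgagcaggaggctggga

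The alpha globin promoters share an unbroken run of 247 identical bases, whereas the longest run shared by the beta globin promoters is 14 bases. Each alpha globin window held 1 GATA match, 2 CACCC matches, 1 CCAAT match and 1 TATAA match. The Hbb-b1 window held 1 of each, and the Hbb-b2 window held no GATA match, 3 CACCC, 3 CCAAT and 2 TATAA matches. In Alas2, 1 GATA, 3 CACCC and 2 TATAA matches were found, and no CCAAT match. The windows of Epb4.2 and Klf1 are not printed. That of Epb4.2 held 1 GATA and 1 TATAA match, and no CACCC or CCAAT match. That of Klf1 held 1 GATA, 1 CACCC and 1 CCAAT match, and no TATAA match. Of 32851 windows of the same length before RefSeq starts, 16.6% held a GATA match, 52.0% CACCC, 33.8% CCAAT and 22.8% TATAA. These matches are letters only, and binding was not measured here.

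All 8 genes were at a higher CPM in the knockout pool, and 4 of them rose by at least 2-fold: both alpha globin genes, Alas2 and Epb4.2. Called higher were 11.2% of the 13833 genes with at least 100 counts, and 2.67% of the 3561 genes with at least 10000 counts, a minimum chosen after seeing that all 8 genes exceed it. Intervals above 0 were found for 8 of 8, against 37.0% of all genes tested. The median log2 ratio of the 8 genes was 1.06, or 2.08-fold, beside -0.07 over all genes tested. No gene of the 8 was called lower, where the share over all genes was 5.36%. With a minimum of 1000 counts, 5.98% of genes were called higher, and the same 4 of the 8. With a minimum log2 ratio of 1.5 in place of 2-fold, 6.55% of genes were called higher and none of the 8. The authors' deposited table gives the same 4 genes a log2 change of at least 1 with a Benjamini-Hochberg q under 0.05, a rule that calls 11.2% of genes higher.

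**Figure D1:**
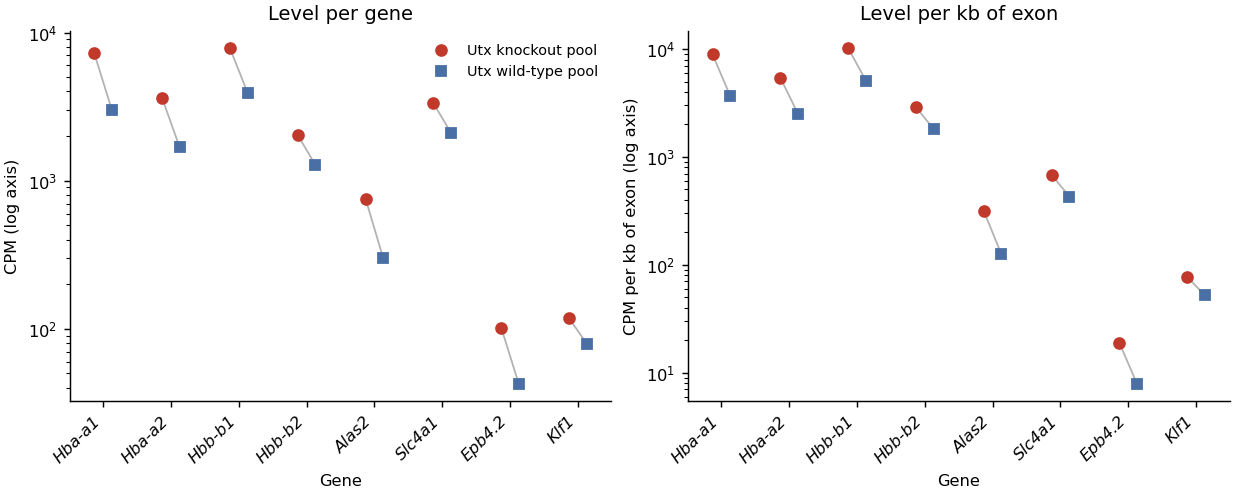
Level of each of the 8 genes in the Utx knockout pool (red circles) and the Utx wild-type pool (blue squares), as CPM (left) and as CPM per kb of exon (right), both on log axes. Each symbol is 1 pooled value; the knockout pool lies above the wild-type pool for all 8 genes, from Hbb-b1 at 7856 CPM in knockout against 3928 CPM in wild-type to Epb4.2 at 102 CPM in knockout against 42.3 CPM in wild-type.

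Alpha globin, the partner chain of beta globin, was read from a pair of copies on chromosome 11. Hba-a1 (ENSMUSG00000069919, chromosome 11, 32283511 to 32284465, plus strand, 3 exons, GRCm38 coordinates of GENCODE M21 and not those of mm9) had 772178 counts in knockout and 324139 in wild-type leukaemias. That is 7254 CPM in knockout against 3001 CPM in wild-type, a log2 ratio of 1.27 (1.27 to 1.28), and 8.26% of the genes tested had a larger one. Its copy Hba-a2 (ENSMUSG00000069917, 32296489 to 32297298) had 385347 counts in knockout and 181029 in wild-type leukaemias, a log2 ratio of 1.11 (1.10 to 1.12). Both copies rose. No 50-base window of Alas2, Slc4a1, Epb4.2 or Klf1 occurs in another gene on the same strand. Of the distinct 50-base windows in transcripts of Hba-a1, 72.3% also occur in Hba-a2, and 89.3% of those of Hba-a2 occur in Hba-a1. Reads of 50 bases from these windows cannot be assigned to 1 copy, so the counts of the single copies are uncertain and their sum is the safer value. Summed, alpha globin took 1.09% of all counts in knockout and 0.468% in wild-type leukaemias, a log2 ratio of 1.22 (1.21 to 1.22).

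Beta globin lay lower in ratio. Hbb-b1 (ENSMUSG00000052305, chromosome 7, 103826534 to 103828096, minus strand) had 836194 counts in knockout and 424315 in wild-type leukaemias, that is 7856 CPM in knockout against 3928 CPM in wild-type. Its log2 ratio rounds to 1.00 (0.99 to 1.01) but is just under the 2-fold minimum, so it was not called. Other scalings moved it past that minimum, to 1.07 with the median of ratios, 1.08 with TMM and 1.10 with totals that leave out mitochondrial and red cell genes. Hbb-b2 (ENSMUSG00000073940, chromosome 7, 103812524 to 103813996, minus strand) had 216187 counts in knockout and 137913 in wild-type leukaemias, a log2 ratio of 0.67 (0.66 to 0.68). These copies share fewer windows, 53.2% of those of Hbb-b1 and 58.3% of those of Hbb-b2, and their single counts are uncertain for the same reason. Summed, beta globin was at 9887 CPM in knockout against 5205 CPM in wild-type, a log2 ratio of 0.93 (0.92 to 0.93).

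The balance of alpha and beta globin read counts differed between the pools by more than counting error. Alpha globin had 1.10 counts for each count of beta globin in the knockout pool, against 0.899 in the wild-type pool. The log2 difference of these ratios was 0.29 (0.29 to 0.30, a log-scale interval of counting error), and it does not depend on how the pools are scaled. Globin chains were not measured. The level of each ratio can depend on how reads shared between copies were counted, which is not stated. Within the beta pair, Hbb-b1 had 3.87 counts per count of Hbb-b2 in knockout and 3.08 in wild-type leukaemias, a difference of 0.33 (0.32 to 0.34). The alpha pair differed less, at 2.00 counts of Hba-a1 per count of Hba-a2 in knockout and 1.79 in wild-type leukaemias, a difference of 0.16 (0.15 to 0.17). Taken singly, Hba-a2 against Hbb-b2 gave a wider difference than the sums, 0.44 (0.43 to 0.45). Together the 4 globin genes made up 2.08% of all counts (exact 95% interval 2.07 to 2.08) in knockout and 0.988% (0.986 to 0.990) in wild-type leukaemias. No gene of the nuclear genome had more counts than Hbb-b1 in the knockout pool, and 4 had more in the wild-type pool.

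**Figure D2:**
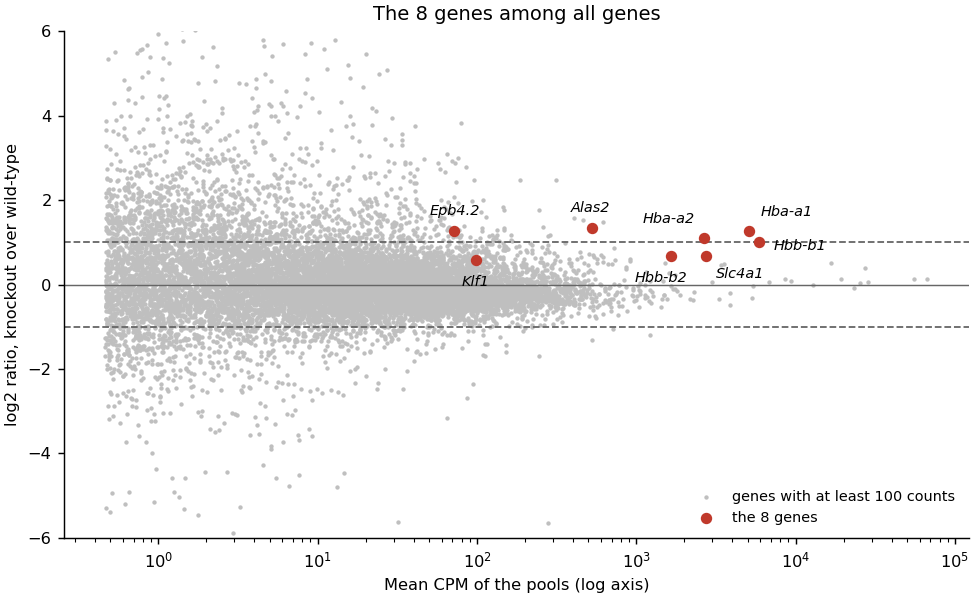
Log2 ratio of the knockout over the wild-type pool (vertical axis) against the mean CPM of the pools (log axis) for genes with at least 100 counts in both pools together (grey) and the 8 genes (red). Dashed lines mark a 2-fold difference, and 61 genes with a log2 ratio beyond 6 in size lie outside the frame; the 8 genes all lie above 0.

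Other globin genes were at far lower levels. The embryonic genes Hba-x, Hbb-y and Hbb-bh1 had 4, 5 and 3 counts in the knockout pool and 5, 13 and 1 in the wild-type pool, and Hbb-bh2 had none in either, where 3 counts (0.0282 CPM in the knockout and 0.0278 in the wild-type pool) is the limit that a count of 0 allows. The theta globin gene Hbq1b, which lies in the alpha globin cluster, rose, with 1466 counts in knockout and 538 in wild-type leukaemias and a log2 ratio of 1.47 (1.32 to 1.61). Its neighbour Hbq1a had 66 counts in knockout against 33 in wild-type, too few to be called. The gene for the alpha haemoglobin stabilising protein is not analysed here.

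Alas2, the erythroid enzyme of the first and rate-limiting step of haem synthesis, had the highest log2 ratio of the 8 genes. This gene (ENSMUSG00000025270, chromosome X, 150547375 to 150570638, plus strand) had 80319 counts in knockout and 32416 in wild-type leukaemias, that is 755 CPM in knockout against 300 CPM in wild-type. The log2 ratio was 1.33 (1.31 to 1.35), and 7.75% of the genes tested had a larger one. For this and every other gene on the X chromosome, Kdm6a included, donor sex and genotype cannot be told apart in RNA of donor cells. Whether the RNA came from donor or recipient cells was not tested. Alas1, which catalyses the same step in other tissues, was at 25.7 CPM in knockout and 26.2 CPM in wild-type leukaemias, with an interval of -0.11 to 0.05 around a log2 ratio of -0.03. Alas2 thus had 29.4 counts per count of Alas1 in knockout and 11.5 in wild-type leukaemias, a log2 difference of 1.36 (1.28 to 1.44).

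None of the other 11 genes of haem synthesis, a list that includes mitochondrial carriers and excludes Alas2, was called higher or lower. Over all genes tested, 11.2% were called higher and 5.36% lower. Of the intervals of the 11, 9 lay above 0 and none below, beside 37.0% above 0 over all genes tested. Alad and Ppox passed the 2-fold minimum with TMM (1.02 each), with the median of ratios (1.01 each) and with totals that leave out mitochondrial and red cell genes (1.04 each). The median log2 ratio of the 11 was 0.64. The highest were Alad and Ppox, the second and the next-to-last enzymes of the pathway, at 0.94 each; Alad was at 367 CPM in knockout against 191 CPM in wild-type and the interval of Ppox reached 1.01. Fech, which inserts iron to complete haem, had 659 CPM in knockout against 420 CPM in wild-type, a log2 ratio of 0.65 (0.63 to 0.67). Beside Alas1, the lowest was Slc25a38, a mitochondrial glycine carrier, at -0.04 (-0.11 to 0.03). Alas2 had 1.14 counts per count of Fech in knockout and 0.714 in wild-type leukaemias, a log2 difference of 0.68 (0.66 to 0.71).

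**Figure D3:**
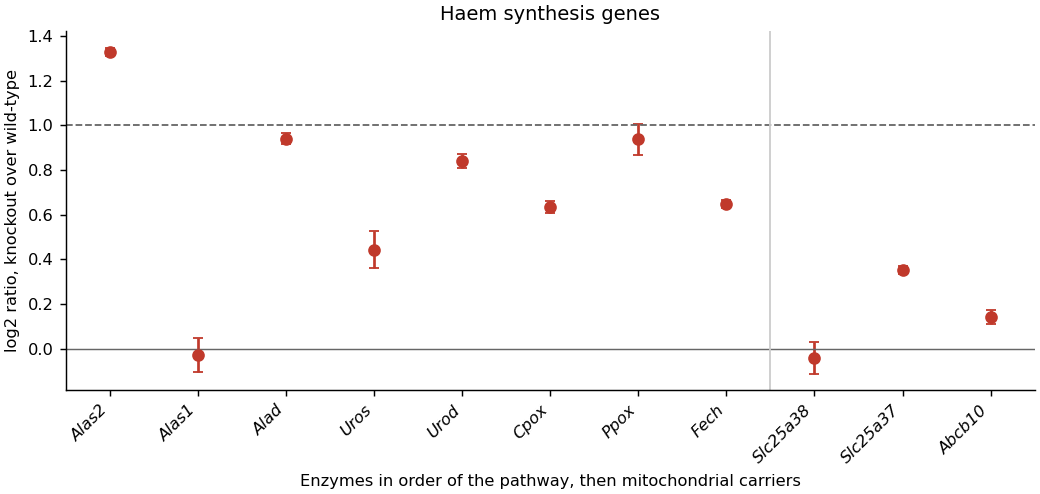
Log2 ratio of the knockout over the wild-type pool for Alas2 and haem synthesis genes whose values are reported singly, in the order of the pathway, followed by mitochondrial carriers (right of the grey line). Points are pooled values and bars exact 95% intervals of counting error; with column totals Alas2 at 1.33 is the only point above the dashed 2-fold line (Alad and Ppox pass it with 3 of the 4 other scalings), and Alas1 and Slc25a38 have intervals that include 0.

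Slc4a1 encodes the anion exchanger of the red cell membrane, also called band 3, and Epb4.2 a protein that ties it to the membrane skeleton. Slc4a1 (ENSMUSG00000006574, chromosome 11, 102348824 to 102366203, minus strand) had 355116 counts in knockout and 226934 in wild-type leukaemias, that is 3336 CPM in knockout against 2101 CPM in wild-type. Its log2 ratio of 0.67 (0.66 to 0.67) stayed under the 2-fold minimum and close to that of Hbb-b2: Slc4a1 had 1.64 counts per count of Hbb-b2 in knockout and 1.65 in wild-type leukaemias. Epb4.2 (ENSMUSG00000023216, chromosome 2, 121017891 to 121037072, minus strand, Epb42 in GENCODE M21) rose, with 10842 counts in the knockout pool, 4572 in the wild-type pool and a log2 ratio of 1.27 (1.22 to 1.32). Slc4a1 had 32.8 counts per count of Epb4.2 in knockout and 49.6 in wild-type leukaemias, a log2 difference of -0.60 (-0.65 to -0.55).

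Of 19 further membrane and skeleton genes, 3 (15.8%) rose, none fell and 16 were not called, beside 11.2% higher and 5.36% lower over all genes tested. The median was 0.52. Those that rose were Tspo2, a translocator protein of erythroid cells, at 1.64 (1.57 to 1.72; 57.5 CPM in knockout against 18.4 CPM in wild-type), the Rh blood group gene Rhd at 1.17 (1.13 to 1.20) and Icam4, an adhesion molecule of erythroblasts, at 1.10 (1.00 to 1.20). The lowest were the alpha spectrin gene Spna1, at 149 CPM in knockout against 158 CPM in wild-type and -0.08 (-0.12 to -0.05), and Ermap at -0.03. Beta spectrin, listed as Spnb1, was at 0.44 and ankyrin, listed as Ank1, at 0.48.

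Red cell enzymes and maturation genes had a median of 0.56, with 1 of 13 (7.69%) higher, beside 11.2% of all genes tested, and none lower, beside 5.36%. The pyruvate kinase gene Pklr rose to 44.1 CPM in the knockout pool, against 16.6 CPM in wild-type leukaemias, at a log2 ratio of 1.40 (1.33 to 1.48). Trim58, a ubiquitin ligase of late erythroblasts, followed at 0.88 (0.77 to 0.99). The carbonic anhydrase gene Car2, the most abundant of this list, was at 1780 CPM in knockout against 1256 CPM in wild-type and 0.50. The lowest were Bnip3l, a mitophagy receptor needed to clear mitochondria from reticulocytes, at 177 CPM in knockout against 217 CPM in wild-type and -0.30 (-0.32 to -0.27), and Hemgn at 0.01 (-0.01 to 0.03).

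Klf1 (ENSMUSG00000054191, chromosome 8, 84901928 to 84905291, plus strand) had the lowest ratio of the 8 genes. It had 12550 counts in knockout and 8581 in wild-type leukaemias, that is 118 CPM in knockout against 79.4 CPM in wild-type. Its log2 ratio was 0.57 (0.53 to 0.61), and 19.3% of the genes tested had a larger one. Alas2, a known target of erythroid factors, had 6.40 counts per count of Klf1 in knockout and 3.78 in wild-type leukaemias, a log2 difference of 0.76 (0.72 to 0.80). Among 14 other regulators, 3 (21.4%) rose, none fell and 11 were not called, with a median of 0.42, beside 11.2% higher and 5.36% lower over all genes tested. Intervals lay above 0 for 11 of the 14, beside 37.0% of all genes tested, and below 0 for 3. Gata1 was at 69.4 CPM in knockout against 46.7 CPM in wild-type and a log2 ratio of 0.57 (0.52 to 0.63). The 3 that rose were Lyl1, a relative of Tal1, at 1.72 (1.58 to 1.86), Bcl11a, known to repress embryonic globin, at 1.45 (1.36 to 1.55), and Nfe2 at 1.12 (1.08 to 1.17). All 3 are also known from other blood cells. The lowest were E2f2 at -0.26 (-0.29 to -0.24) and Sox6 at -0.06. The small negative values of Alas1, Slc25a38, Spna1, Ermap and Sox6 turn positive with totals that leave out mitochondrial and red cell genes, from 0.016 for Spna1 to 0.071 for Alas1 and Ermap.

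Iron and haem handling genes had a median of 0.43, and 4 of 14 (28.6%) rose, with none lower and 10 not called, beside 11.2% higher and 5.36% lower over all genes tested. Intervals lay above 0 for 9 of the 14, beside 37.0% of all genes tested, and below 0 for 4. Hmox1, the enzyme that breaks down haem, rose most, to 71.4 CPM in the knockout pool, against 21.3 CPM in wild-type leukaemias, at a log2 ratio of 1.75 (1.68 to 1.82). The iron exporter gene Slc40a1 was at 1.18 (1.10 to 1.26), the biliverdin reductase gene Blvrb at 1.15 (1.12 to 1.17) and the transferrin receptor gene Tfr2 at 1.01 (0.89 to 1.14). Tfrc, the main route of iron into erythroblasts, was at 931 CPM in knockout against 511 CPM in wild-type and 0.87. Glrx5 was lowest at -0.34 (-0.37 to -0.32), followed by Aco1 at -0.27. Hmox1 and Slc40a1 are also known as genes of the macrophages that recycle red cell iron, whose markers are given below.

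**Figure D4:**
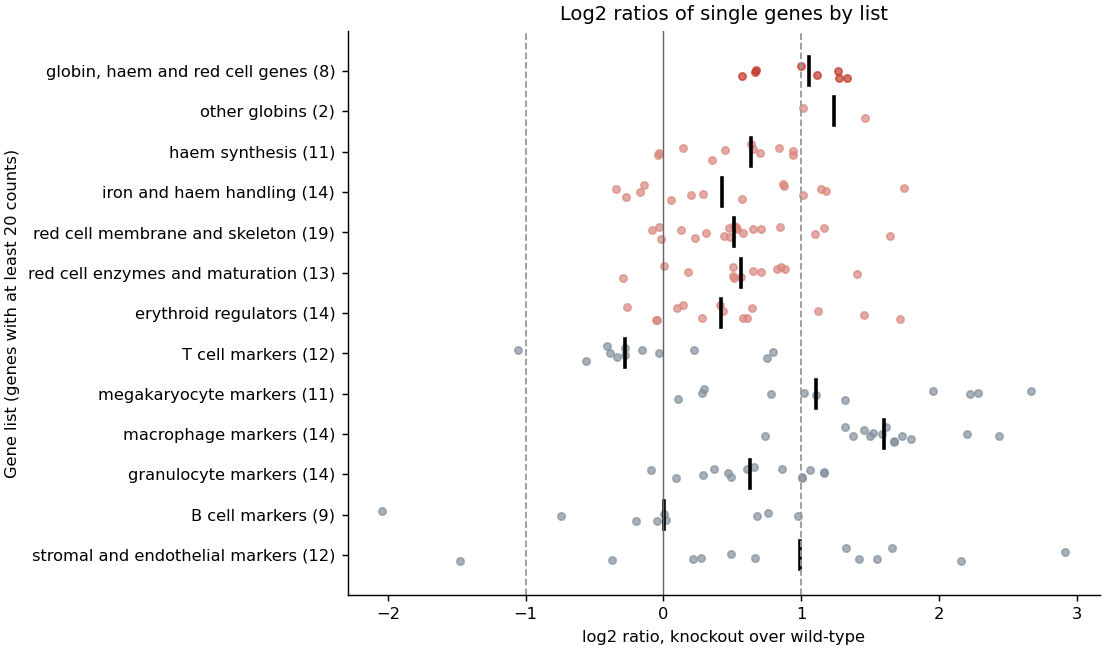
Log2 ratio of the knockout over the wild-type pool for single genes (points) of each list, with the median of the list as a black bar and the number of genes with at least 20 counts in brackets. Red marks the 8 genes and other red cell lists, grey the markers of other cells; medians are 1.06 for the 8 genes, 0.42 to 1.24 for the red cell lists, 1.60 for macrophage markers and -0.28 for T cell markers.

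The order of levels per kb of exon was the same in both pools. From the top it ran Hbb-b1 (10229 CPM per kb in knockout and 5115 in wild-type leukaemias), Hba-a1 (8934 in knockout, 3696 in wild-type), Hba-a2 (5427 in knockout, 2513 in wild-type), Hbb-b2 (2889 in knockout, 1816 in wild-type), Slc4a1 (682 in knockout, 430 in wild-type), Alas2 (314 in knockout, 125 in wild-type), Klf1 (77.1 in knockout, 51.9 in wild-type) and Epb4.2 (18.8 in knockout, 7.81 in wild-type). Exon lengths were taken from GENCODE M21, where they merge the exons of all transcripts of a gene. No spread over samples is available to say which neighbours in this order differ.

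Over the lists of other globins, haem synthesis, membrane and skeleton, and enzymes and maturation, 45 genes had at least 20 counts, of which 5 (11.1%) rose and none fell, with a median of 0.53. Beside that 11.1%, 9.02% of all genes with at least 20 counts were called higher. The share was 11.2% with at least 100 counts, 5.98% with at least 1000 and 2.67% with at least 10000. None of these sets was matched to the listed genes in abundance. The median lies above the -0.07 of all genes with at least 20 counts. Intervals lay above 0 for 38 of the 45 genes and below 0 for 3. Over all 17186 genes with at least 20 counts, 5990 intervals lay above 0 and 7343 below. This comparison is a description, since the 8 genes are among the best-known and most abundant of red cells.

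**Figure D5:**
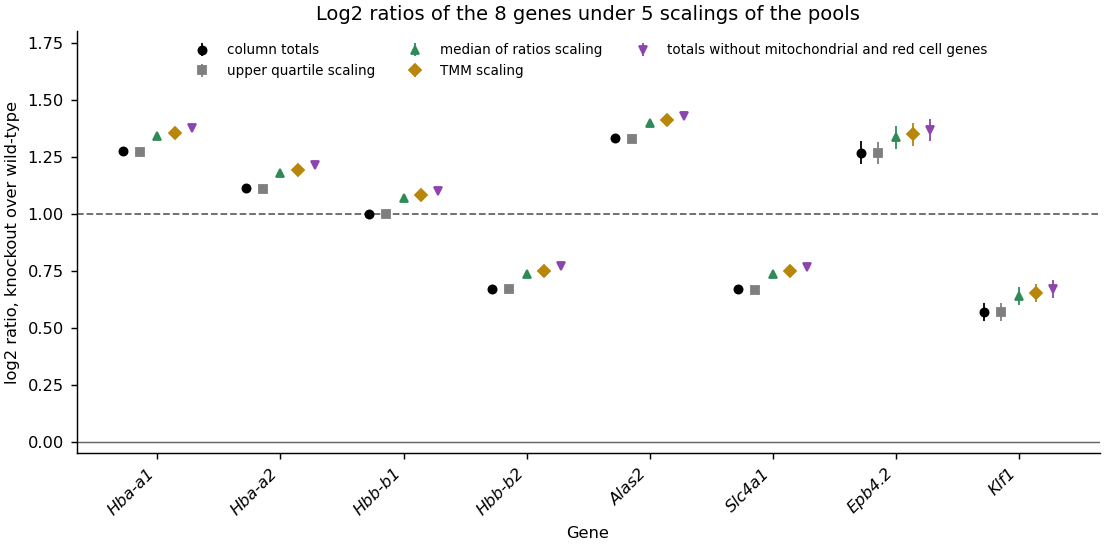
Log2 ratio of the knockout over the wild-type pool for the 8 genes with 5 ways of scaling the pools. Points are pooled values, bars exact 95% intervals of counting error, and the dashed line the 2-fold minimum; Hbb-b1 crosses it, at 1.00 with column totals and 1.10 with totals that leave out mitochondrial and red cell genes, while the other 7 genes stay on 1 side of it under these 5 scalings.

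Markers of other cells also differed between the pools, and their part in the ratios above was not tested. Over all genes tested, 11.2% were called higher and 5.36% lower. Only genes with at least 100 counts could be called: 9 of the 12 megakaryocyte, 6 of the 10 B cell and 10 of the 12 stromal and endothelial markers. Macrophage markers rose for 13 of 14 genes, with a summed level of 375 CPM in knockout and 127 CPM in wild-type leukaemias, a median of 1.60, and a range from Cd163 at 0.74 to Marco at 2.43. Megakaryocyte markers, of a lineage that shares a progenitor with red cells, rose for 5 of 12, at 48.1 CPM in knockout against 23.1 CPM in wild-type in sum; the median of the 11 with at least 20 counts was 1.11, and genes with at least 100 counts ranged from Gp1bb at 0.11 to Ppbp at 2.66. Granulocyte markers rose for 5 of 14, at 2619 CPM in knockout against 2128 CPM in wild-type, with a median of 0.63 and a range from Ngp at -0.09 to Csf3r at 1.17. Stromal and endothelial markers rose for 5 of 12 and fell for 1, with a median of 0.99 but a summed level of 154 CPM in knockout against 186 CPM in wild-type; they ranged from Pdgfrb at -1.48 to Cxcl12 at 2.92. B cell markers had a median of 0.01, none rose and 1 of 10 fell, Pax5 at -2.04, with 10.4 CPM in knockout against 13.2 CPM in wild-type in sum; Cd79b was highest at 0.98 and was called higher with 3 of the 4 other scalings (1.05 to 1.08). None of these markers was at 0 in either pool.

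T cell markers, which check the labelled cell type, were present in both pools at 3093 CPM in knockout and 3741 in wild-type leukaemias over 12 genes. None rose, beside 11.2% of all genes tested, and 1 fell, beside 5.36%. That was Thy1, at -1.06. Its call was lost with TMM (-0.98), the median of ratios (-0.99) and totals that leave out mitochondrial and red cell genes (-0.96). Cd28 was highest at 0.80, and the median of the T cell markers was -0.28. Intervals lay below 0 for 9 of the 12 and above 0 for 3. Over all 13833 genes tested, 6466 intervals lay below 0 and 5119 above. Cd3e, among the 9, turned positive with TMM (0.05), the median of ratios (0.03) and totals without mitochondrial and red cell genes (0.07). For comparison, the 8 genes summed to 25071 CPM in knockout and 12405 in wild-type leukaemias. Mitochondrial transcripts took 32.2% of counts in knockout and 29.2% in wild-type leukaemias, which bears on every value scaled to totals.

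With only 2 pools, likeness of pattern rests on a single ratio per gene. Outside all lists, and at a mean of 100 CPM or more, the 5 genes nearest in log2 ratio to the median of the 8 genes were Trbc1 (1.05), Trib2 (1.07), Ikzf2 (1.07), Lsp1 (1.03) and Chi3l3 (1.02), among 1519 genes of that level.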

How the data were processed

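Poly(A)-selected, strand-marked libraries gave single reads of 50 bases on the machine, per the labels' protocols; the design text of the series also names ribosomal RNA depletion and sorted populations. CASAVA, TopHat and mm9 are named in the submitters' processing notes without versions; the sources used here name no annotation, counting tool or strand setting. The authors deposited 1 DEGseq table of raw read counts per gene for 2 pools. Its first value column was taken as knockout, from the order in its title, and checked with Kdm6a. Deposited log2 changes, p-values and q-values are the authors'; the deposited z score was not used. No column held values of single samples (0 columns), so no test across samples was run.

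CPM used the total of gene rows. Log2 ratios used a pseudocount of 0.5 counts. Intervals (95%) and limits of a count of 0 (3 counts) cover counting error only, and reads without molecular identifiers are not independent molecules. An exact interval for differences between ratios could not be computed at these counts, so a log-scale normal interval was used. Scalings came from edgeR 4.0.16 and DESeq2 1.42.0 in R 4.3.3; the rest used Python 3.11.15, scipy 1.17.1 and pandas 2.3.3. The calling code was run on counts simulated with counting error only. That check cannot speak to spread between leukaemias or to repeated reads. List genes were matched by symbol, and shared 50-base windows were searched in GENCODE M21 transcripts on the transcript strand.

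Members and lists were chosen with earlier results of these data known. Named genes are the 8 genes, Kdm6a, called members and the 2 highest and 2 lowest of each red cell list with at least 100 counts, the highest and lowest of each marker list, and the 5 genes nearest in ratio. Fech, Spnb1, Ank1, Car2, Gata1, Tfrc, Hbq1a and the embryonic globins were added after their values were seen, to show abundant or well-known genes. Some genes of the lists are counted there but not reported singly here.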

Additional observations from a re-analysis of the deposited data

How the results depend on the processing

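Intervals above 0 for all 8 genes were found under column totals, TMM, upper quartile, median of ratios and totals without mitochondrial and red cell genes. These scalings moved the median log2 ratio of all genes tested between -0.07 and 0.03. The number of the 8 genes called higher was 4 with column totals and upper quartile scaling and 5 with the other 3 scalings, which added Hbb-b1; it was 7 with a minimum of 1.5-fold, which left out Klf1 (18.9% of all genes tested were then called), and 0 with a minimum log2 ratio of 1.5 (6.55%). Summed beta globin, at 0.93 with totals, passed the 2-fold minimum with TMM (1.01) and with totals without mitochondrial and red cell genes (1.03). The direction of that last scaling was fixed by the genes it leaves out, which include the 8 genes and were larger in the knockout pool. The excess of alpha over beta globin was 0.29 summed, 0.27 for Hba-a1 against Hbb-b1 and 0.44 for Hba-a2 against Hbb-b2; the cause was not tested. Log2 ratios of single genes were also taken under the 4 other scalings and with a pseudocount of 5 counts, 40 in all. Of these 40, 37 kept their call and 3, all of Hbb-b1, gained one. At counts of this size the pseudocount could hardly move a ratio, so its part of the 40 tests little. The changes of the fold minimum given above are not among the 40. In the lists, calls changed for Alad and Ppox (called higher), Thy1 (no longer lower) and Cd79b (called higher) with 3 of 4 other scalings; list calls under other scalings and the minimum of 10000 counts were examined after seeing the data. The median of B cell markers, 0.01, turned to -0.12 with genes of at least 100 counts and to -0.066 with the mean. No paired analysis was possible because the table holds 1 pooled column per genotype, and leaving out replicates was not possible for the same reason.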
